A study of Mus musculus with 42 samples.

Results

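The cytosolic ribosomal protein genes were followed through 32 libraries of polyA-selected RNA from mouse embryonic stem cells (ESCs). A gene was taken if its name had the form of a large or small subunit protein (Rpl or Rps with a number), was Rplp0, Rplp1 or Rplp2, or was Rpsa, and names of pseudogenes were not taken. The rule gave 88 genes of the 16345 named in the table of epiblast-like cells (EpiLCs), and the same 88 of the 16753 in the table of embryoid bodies (EBs). They comprise 43 large subunit genes, 31 small subunit genes, 3 genes of the P stalk, and 11 paralogues or near-identical copies. The choice of these genes also cited the fall of Rplp1 in the knockout, so Rplp1 is described there without a test and is left out of the counts of called genes. All 88 genes passed the filter on low values, a mean of at least 1, in each comparison.

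A ribosome is built from ribosomal RNA and many proteins, most of them encoded by a single expressed gene with many processed pseudogenes elsewhere in the genome. The large subunit joins amino acids, the small subunit reads the messenger RNA, and the P stalk, in which Rplp0 anchors dimers of Rplp1 and Rplp2, recruits the elongation factors. Messenger RNAs of these proteins typically begin with a C followed by a run of C and T (U in the RNA), the 5′ terminal oligopyrimidine or 5′ TOP, through which mTOR signalling and Larp1 control their translation and stability.

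The cells are of the ESC line KH2-ISY1, which makes Flag-tagged ISY1, a splicing factor, when doxycycline (Dox) is given. Without Dox the line was sampled in 2i/LIF (0 h) and after 6, 12, 18, 24, 30, 36, 48, 72 and 96 h of conversion to EpiLCs, and with Dox after 24, 48, 72 and 96 h. Cells called cESC are EpiLCs of 24 or 48 h, made with or without Dox, that were replated in 2i/LIF, and the labels give the replated cultures as without Dox (4 libraries). A line lacking DGCR8, the RNA-binding partner of Drosha in microRNA processing, was sampled at 0, 6, 24, 48, 72 and 96 h of the same conversion. The labels name it as a line of its own and do not give its parent, so an effect of the deletion and one of the line cannot be told apart. The EB course of KH2-ISY1 without Dox starts in serum/LIF (day 0) and runs through days 1, 2, 4, 8, 10 and 13, and 1 further library is of serum/LIF cells with Dox. Each condition and time has 1 library, so p-values measure the spread of a difference over hours or around a fitted curve, and nothing in the labels says that separate cultures were taken.

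Values are gene read counts divided by 1 size factor per library, called normalised read counts here. Depth per library was 5.80 to 56.0 M reads (M for mega). It was 6.17 to 13.2 M reads without Dox at the hours shared with the knockout and 11.7 to 38.8 M reads in the knockout. The 38.8 M reads, of the knockout at 96 h, are uncertain, since the rounding of the values does not settle that library's size factor. Dgcr8 itself had 96.5, 231.0, 138.2, 75.2, 151.0 and 79.1 normalised read counts at those hours without Dox and 43.4, 43.3, 41.8, 42.1, 44.5 and 36.8 in the knockout, with no overlap. Isy1 had 422.7, 396.5, 557.5 and 417.9 without Dox at 24 to 96 h and 3038, 912, 1109 and 708 with Dox. Summed pluripotency markers (6 of 6 genes present in the table) stood at 1309 to 4309 ppm of all values without Dox at the shared hours and at 2075 to 4504 in the knockout, and the epiblast markers at 46.7 to 513 and 70.1 to 508. Endoderm and erythroid markers were not among the genes of the EpiLC table. In bulk RNA, fewer cells of a type and less RNA per cell cannot be told apart.

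Start-site windows are shown because most of these genes moved together in the knockout; both genes that fell and genes that did not are among them. RefSeq start sites (GRCm38.p6) were matched by symbol for 63 of the 88 genes, in 75 windows of 30 bases, 15 before the start and 15 from it on. Each window below is written 5′ to 3′ on the gene's strand with its longest run of C and T in capitals.
Rps27, small subunit, chr3:90213634-90213663, minus strand: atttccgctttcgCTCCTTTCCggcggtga
Rps10, small subunit, chr17:27635230-27635259, minus strand: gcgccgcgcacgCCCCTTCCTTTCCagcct
Rplp2, P stalk, chr7:141447636-141447665, plus strand: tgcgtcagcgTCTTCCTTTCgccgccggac
Rplp0, P stalk, chr5:115559452-115559481, plus strand: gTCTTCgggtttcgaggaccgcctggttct
Rpl15, large subunit, chr14:18270972-18271001, minus strand: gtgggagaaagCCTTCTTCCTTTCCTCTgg
Rpl22l1, paralogue, chr3:28805493-28805522, plus strand: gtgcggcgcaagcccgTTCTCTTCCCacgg
Rpl10l, paralogue, chr12:66284387-66284416, minus strand: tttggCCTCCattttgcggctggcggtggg
Rpl39l, paralogue, chr16:10170213-10170242, plus strand: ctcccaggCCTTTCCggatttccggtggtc
The first base of the transcript is base 16 of each window. A C there followed by 4 bases that are each C or T was found in 13 of the 75 windows (17.3%), on the gene's strand only, against 2.51% of all 32851 windows of the same length in the table. None of the 8 windows of paralogues, which cover 6 of the 11 genes, began in this way. A C followed by 7 bases of C or T anywhere in the window was present in 36% of the members' windows (25% of those of paralogues and 37.3% of the rest) and in 9.26% of all windows. Annotated starts can be off by some bases, so these letters describe the windows and are not mapped 5′ ends.

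The ribosomal protein genes took a smaller part of the RNA in the DGCR8 knockout at each shared hour. Their values summed to 6.78%, 5.48%, 5.35%, 5.74%, 5.17% and 5.31% of the library at 0, 6, 24, 48, 72 and 96 h without Dox. In the knockout the sums were 4.80%, 3.85%, 3.62%, 5.14%, 3.94% and 4.18%. The sums over all 88 genes, Rplp1 included, did not overlap, although the highest knockout library (48 h) was close to the lowest library without Dox (72 h). The difference was −1.38 ± 0.493 percentage points (SD over 6 pairs), lower in 6 of 6. Without the 3 P stalk genes, Rplp1 among them, the difference was −1.15 ± 0.473, lower in 6 of 6, but the groups overlapped. The knockout at 48 h (4.859%) then stood above 24, 72 and 96 h without Dox (4.852%, 4.698% and 4.84%). With mitochondrially encoded rows left out of the total, the knockout at 48 h (5.402%) stood above 72 h without Dox (5.345%).

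**Figure D1:**
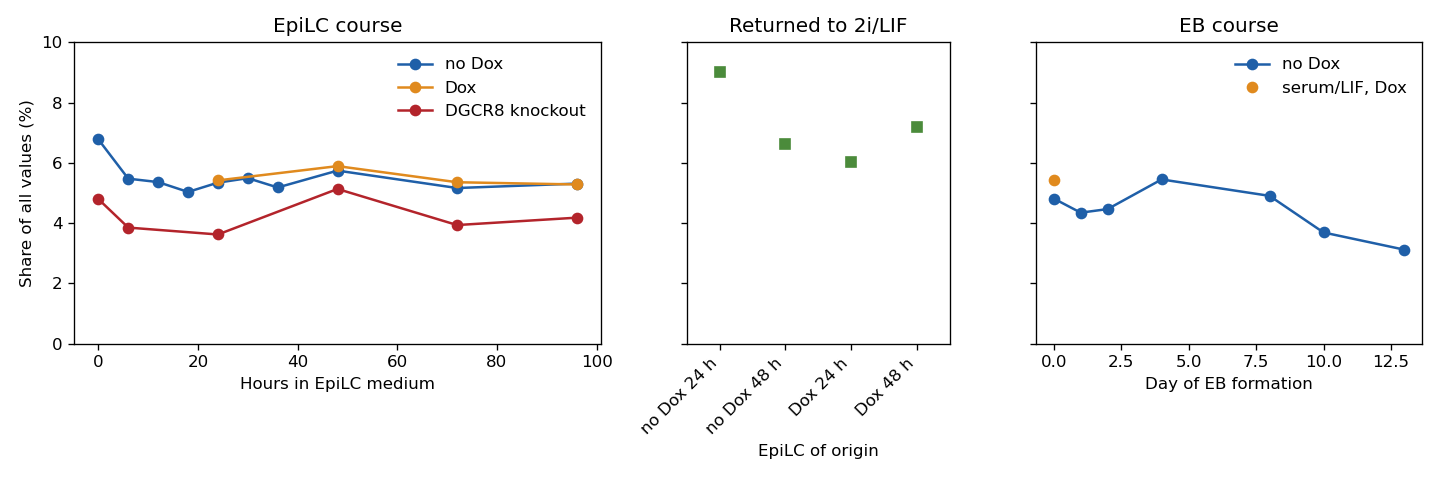
Sum of the 88 ribosomal protein genes as a percent of all values of each library (vertical axis) for every polyA library, arranged by condition and time. The 6 knockout libraries sit between 3.62% and 5.14%, all below the 5.17% to 6.78% of the libraries without Dox at the same hours, and the 4 cESC libraries sit between 6.02% and 9.01%.

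By gene, 75 of the 87 genes other than Rplp1 fell in the knockout and 1 rose (limma, adjusted p under 0.05), where 24.3% of all 16267 genes tested were called lower, 18.1% higher and 42.4% in either direction. The median log2 difference over the 87 was −0.43, beside −0.08 for all genes tested. Values of the 2 arms did not overlap at all for 34 of the 87, each lower in the knockout, against 6.48% of all genes in that direction and 3.89% in the other. With median-ratio scaling of the libraries 56 fell, and in the same fit 3570 of the 6691 genes called were higher, against 2941 of 6899 with the deposited scaling, which moved the median of all genes by under 0.1. The fit without hour as a block called 51 lower.

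Large subunit genes fell in 40 of 43 cases, with a median of −0.46. Rpl31, which lies near the exit of the peptide tunnel, had 1062 to 1819 normalised read counts without Dox and 601 to 955 in the knockout. Its log2 difference was −0.79 (SE 0.11, limma adjusted p = 0.000699), and the arms did not overlap. Rpl11 and Rpl5, which with 5S ribosomal RNA bind Mdm2 when ribosome assembly is disturbed, fell by 0.54 (adjusted p = 0.000719 by limma) and 0.36 (0.0408) on the log2 scale. The 3 large subunit genes that were not called were Rpl13a (−0.20), Rpl32 (0.02, 95% interval −0.23 to 0.26) and Rpl15 (0.09, −0.27 to 0.45). Rpl32 had a lowest, median and highest value of 4333, 5017 and 6423 without Dox and of 4022, 5069 and 6726 in the knockout, so the arms overlapped over nearly their whole range.

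Small subunit genes fell in 25 of 31 cases, with a median of −0.36. Rps27, a zinc-finger protein of the small subunit, had 971, 738, 765, 800, 592 and 620 normalised read counts without Dox at the 6 shared hours and 445, 329, 291, 561, 309 and 354 in the knockout. Its arms did not overlap, and its log2 difference was −0.99 (SE 0.12, limma adjusted p = 0.00033). Rps10, whose window is printed above, fell by 0.58 (limma adjusted p = 0.000529). Rps2, at the entry of the messenger RNA channel, had 2086 to 2667 without Dox and 1141 to 1622 in the knockout, also without overlap, a difference of −0.80 (SE 0.071, limma adjusted p = 0.000103). Rps6, the substrate of S6 kinase, fell by 0.51 on the log2 scale (limma adjusted p = 0.000949), and Rpsa, the laminin receptor of older literature, by 0.36 (0.0175). Rps15a (−0.33), Rps24 (−0.23), Rps29 (−0.20), Rps27a (−0.15), Rps21 (−0.06) and Rps23 (−0.04) were not called. Rps27a encodes ubiquitin fused to a ribosomal protein.

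**Figure D2:**
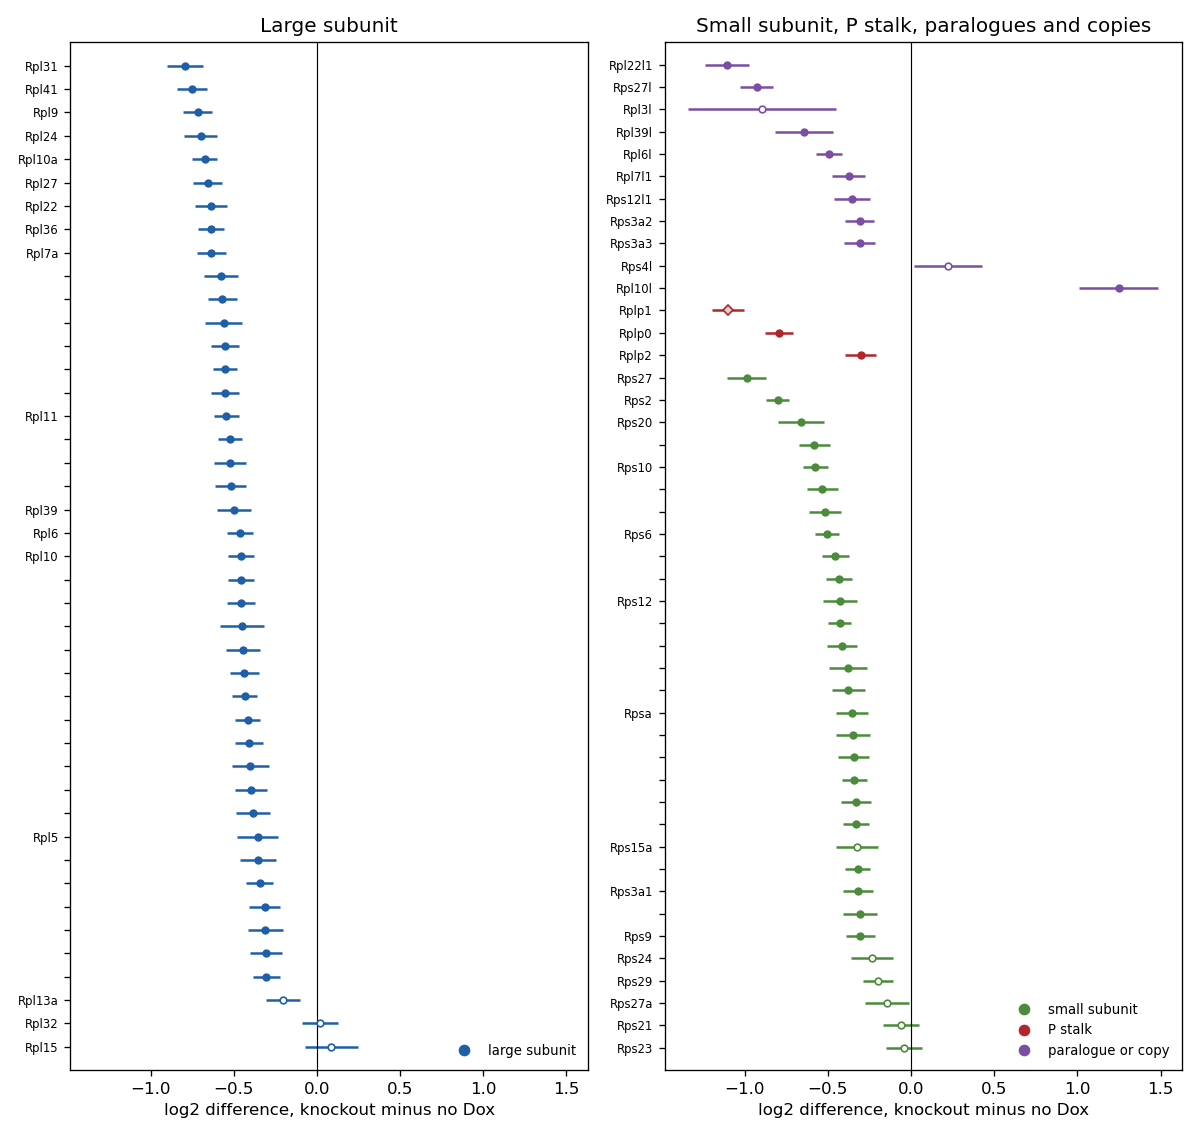
Fitted log2 difference between the knockout and the cells without Dox (horizontal axis) for each of the 88 genes, grouped by role, with bars of 1 standard error and names for the genes described in the text. Filled points passed limma's adjusted p of 0.05, open points did not, and the pale diamond is Rplp1, which was not tested. Most points lie between −0.8 and −0.2, with Rpl10l alone far to the right at 1.25.

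The P stalk genes differed in size of change. Rplp1 had a lowest, median and highest value of 14302.5, 16466 and 19262 normalised read counts without Dox and of 6047, 7770.5 and 9084 in the knockout, a log2 difference of −1.10. This value took part in the choice of the genes and has no test. Rplp0 had 8836, 10429.7 and 11646 without Dox and 4865, 5927 and 6936 in the knockout, again with no overlap, and fell by 0.79 on the log2 scale (SE 0.083, limma adjusted p = 0.0002). Rplp2 had 1228, 1287 and 1595 without Dox and 988, 1085 and 1238 in the knockout. Its arms overlapped narrowly, and it fell by 0.30 (SE 0.094, limma adjusted p = 0.0284), lower in 5 of 6 pairs. That call was lost with median-ratio and TMM-like scaling, without the intensity trend or the block, by edgeR, and in fits lacking the 24, 48, 72 or 96 h pair.

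The balance of stalk transcripts is given without a test, since Rplp1 took part in the choice. Its fall in the knockout enters the ratios below, so their ranges are a description only. Values are not per length, so a ratio of genes is followed between libraries only and is not a ratio of molecules. Rplp1 over Rplp2 ran from 8.99 to 15.7 in the libraries without Dox and from 5.82 to 8.22 in the knockout. In the cESC libraries it ran from 16.2 to 22.7. Rplp1 over Rplp0 ran from 1.30 to 1.87 without Dox and from 1.22 to 1.40 in the knockout, so this ratio overlapped.

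**Figure D3:**
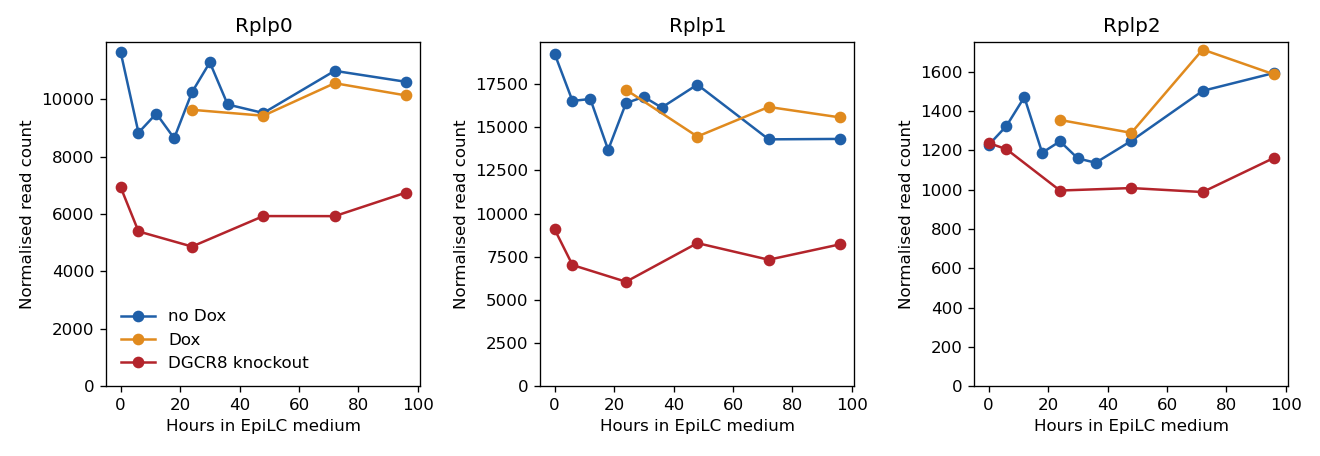
Normalised read counts (vertical axis, from 0) of Rplp0, Rplp1 and Rplp2 against hours in EpiLC medium, without Dox, with Dox and in the DGCR8 knockout, with 1 point per library. Rplp0 and Rplp1 of the knockout lie below the libraries without Dox at every shared hour, while Rplp2 of the knockout starts level with them at 0 h (1238 against 1228).

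To see which genes departed from the group, each gene's value was also expressed relative to the median ribosomal protein gene of its library and refitted. Of the 87 genes, 9 were higher and 11 lower in the knockout on this scale (limma, adjusted p under 0.05), where 48.4% of all genes were called. Of all 16262 genes tested, 6665 were called higher and 1209 lower, with a median difference of 0.33. The share called lower was 12.6% of the members and 7.43% of all genes. The higher ones were led by Rpl10l (1.68), Rps4l (0.66), Rpl15 (0.52), Rpl32 (0.45), Rps23 (0.39) and Rps21 (0.37), and were completed by Rps27a, Rps29 and Rpl13a. The lower ones were led by Rpl22l1 (−0.68), Rps27 (−0.56), Rps27l (−0.50), Rps2 (−0.37) and Rplp0 (−0.36), with Rpl31, Rpl41, Rpl9, Rpl24, Rpl10a and Rpl27 behind them. Rplp1 stood at −0.67 and was not tested.

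The difference was of like size at 5 of the 6 hours. The members' median difference was −0.50 at 0 h, −0.48 at 6 h, −0.62 at 24 h, −0.49 at 72 h and −0.44 at 96 h. It was −0.17 at 48 h, where 60 genes were lower and 28 higher. The medians of all genes tested were −0.11, −0.03, −0.12, −0.11 and 0.0 at those 5 hours and −0.10 at 48 h. The knockout library at 48 h stood above its neighbours, with 87 of 88 genes higher than at 24 h (median 0.58, beside 0.01 for all genes). From 48 to 72 h 83 were lower (median −0.45, beside 0.05). Without the 48 h pair 78 of the 87 genes fell (89.7%, beside 19.8% of all genes). A trend of the difference along the hours was found for none of the 87 genes by limma (4 at an unadjusted p under 0.05) and for none by edgeR (3), where limma called 0.523% of all genes.

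**Figure D4:**
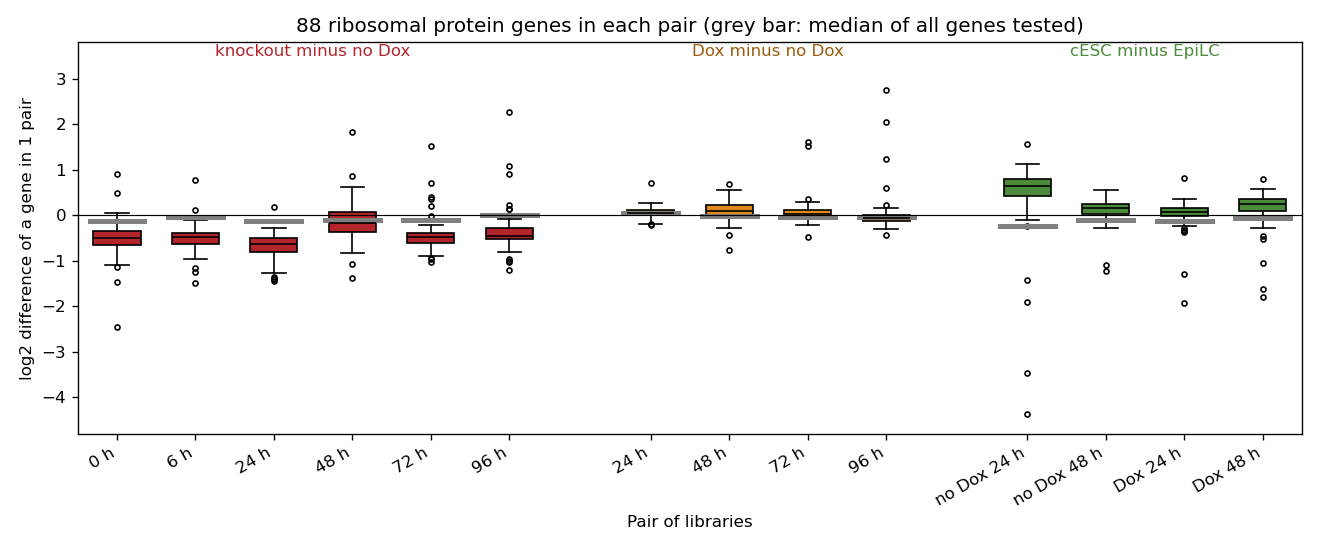
Boxes of the log2 difference of the 88 genes within each matched pair of libraries, by comparison, with a grey bar at the median of all genes tested. The knockout box at 48 h is the one nearest 0 (median −0.17), and the other knockout boxes have medians of −0.44 to −0.62.

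Paralogues and copies split in the knockout, with 8 of 11 lower and 1 higher. Rpl22l1, the paralogue of Rpl22, had 116.1, 159.7 and 196.5 normalised read counts without Dox (lowest, median and highest) and 59.0, 68.8 and 99.5 in the knockout, with no overlap. It fell by 1.11 on the log2 scale (SE 0.13, limma adjusted p = 0.000334), and Rpl22 itself fell by 0.64 (0.00105). Rps27l, a p53-responsive paralogue of Rps27, had 421, 539 and 632 without Dox and 232, 258 and 415 in the knockout, and fell by 0.93 (SE 0.097, limma adjusted p = 0.000196). The muscle paralogue Rpl3l (−0.90, adjusted p = 0.133 by limma) and Rps4l (0.22) were not called.

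Rpl10l and Rpl39l are autosomal paralogues of X-linked Rpl10 and Rpl39 and are best known from the testis. Rpl10l had 823.5, 690.5, 854.5, 274.3, 103.0 and 25.5 normalised read counts without Dox at the 6 shared hours and 1547, 1182, 973, 973, 299 and 126 in the knockout. The ranges overlapped because both arms declined with time, but within each hour the knockout was higher, in 6 of 6 pairs. The log2 difference was 1.25 (SE 0.24, limma adjusted p = 0.00341). Rpl39l went the other way, with 183.5, 186.9, 209.1, 112.4, 31.0 and 13.2 without Dox and 88.4, 135.2, 90.3, 108.4, 17.3 and 10.7 in the knockout. It was lower in 6 of 6 pairs, with a log2 difference of −0.64 (limma adjusted p = 0.0166), a call that was lost without the 0 h or the 24 h pair. Without the block of hours neither Rpl10l nor Rpl39l was called.

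Other copies could not be separated from their parents. Rps12l1 over Rps12 stayed within 0.874 to 0.968 in the 24 EpiLC-table libraries, Rpl6l over Rpl6 within 0.385 to 0.419, Rps3a2 over Rps3a1 within 0.556 to 0.625 and Rps3a3 over Rps3a1 within 0.512 to 0.588. Reads of a copy and its parent may have been shared between them in counting, which was not tested, and the values of these copies are uncertain. By contrast, Rpl10l over Rpl10 ran from 0.0155 to 1.23 and Rpl39l over Rpl39 from 0.0016 to 0.0797. Rows named as ribosomal protein pseudogenes fell in 128 of 177 cases and rose in none, with a median of −0.45 that lies beside that of the genes they copy.

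**Figure D5:**
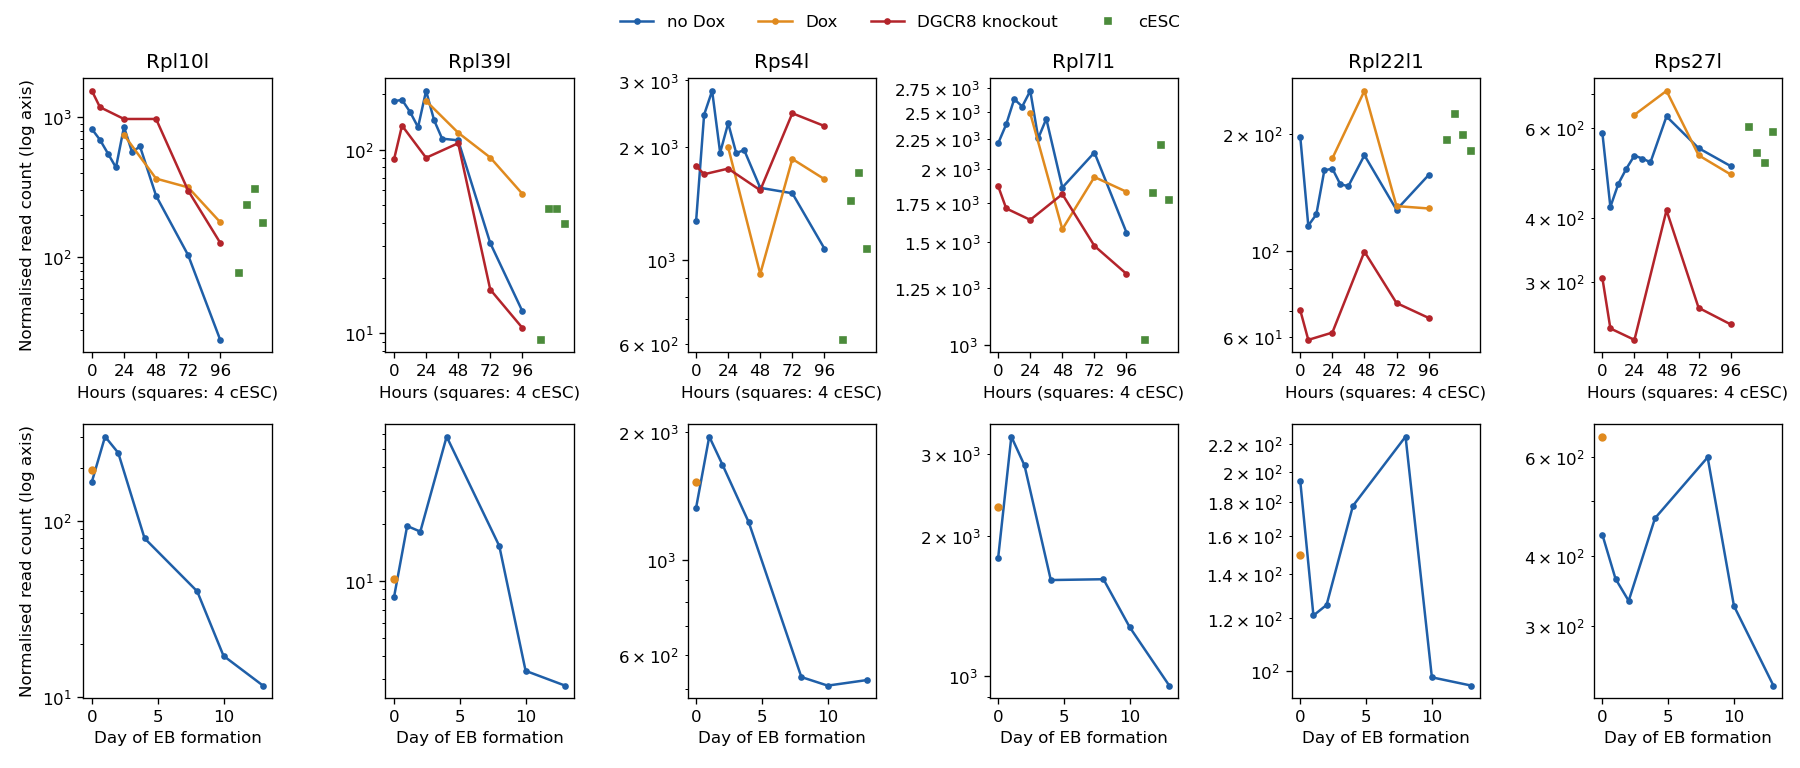
Normalised read counts (log axis) of Rpl10l, Rpl39l, Rps4l, Rpl7l1, Rpl22l1 and Rps27l against time in the EpiLC table (upper row) and the EB table (lower row), with 1 point per library; squares are the 4 cESC libraries and the separate point in the EB panels is serum/LIF with Dox. Rpl10l and Rpl39l fall from 48 to 96 h with and without Dox and in the knockout. Without Dox both are highest at 24 h (854.5 and 209.1), and Rps4l rises and then falls.

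Genes that work with the ribosome were also called lower more often than higher in the knockout, apart from the short list of regulators, where the counts were close. Translation factors and other 5′ TOP messenger RNAs fell in 11 of 17 cases and rose in none (median −0.36), among them Pabpc1, the poly(A)-binding protein (−0.83), and Naca (−0.56). Of 37 ribosome biogenesis genes 16 fell and 4 rose (median −0.21). Nop10 (−0.94) and Nhp2 (−0.86), small proteins of the pseudouridylation complex, fell, while Polr1a (0.57), the largest subunit of RNA polymerase I, and Nop2 (0.52) rose. Of 4 ribosomal proteins outside the naming rule 3 fell, including Rpl36al (−0.58) and Fau (−0.49). Of 10 regulators 3 rose and 4 fell, with Mycn (1.18) and Trp53 (0.67) higher and Mycl (−0.72) and Eif4ebp1 (−0.66) lower.

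Gene families of mitochondria gave a reference. Mitochondrial ribosomal proteins fell in 44 of 81 cases and rose in 3 (median −0.38), with Mrps26 (−1.12) and Mrpl42 (−1.11) lowest and Mrps25 (0.54) and Mrps22 (0.51) highest. Nuclear respiratory chain genes fell in 50 of 87 cases and rose in 4 (median −0.38), with Cox7b2 (−2.71) and Ndufa4l2 (−2.26) lowest and Ndufa5 (0.61) among those that rose. Both lists were taken by name. The ribosomal list holds pseudogene rows such as Mrpl48-ps. The respiratory list holds assembly factors such as Ndufaf1 and pseudogene rows such as Atp5l-ps1. Genes encoded in the mitochondrion rose in 10 of 13 cases (median 0.49), and their share of the library was 3.84% to 5.99% in the knockout against 3.19% to 4.10% without Dox. Feeder markers, of which 3 of 7 were in the table, summed to 2.57 to 7.61 ppm in the knockout and 3.82 to 27.6 without Dox, neural markers to 51.9 to 435 and 38.2 to 146, and heart markers to 1.25 to 22.7 and 2.27 to 24.9. Pluripotency markers had positive differences in 6 of 6 cases (median 0.85), of which Sox2 (1.54) and Esrrb (1.08) were called higher. Of 4 epiblast markers Fgf5 (−1.51) and Pou3f1 (−1.65) were called lower and Otx2 (0.86) higher. The part of depth, mitochondrial share and these markers in the result was not tested.

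In the EpiLC course without Dox the ribosomal protein genes were lower from 6 h on than at 0 h. From 0 to 6 h 82 of 88 were lower (median −0.32, beside −0.08 for all genes). The knockout made a step of the same kind, with 86 of 88 lower (median −0.31, beside 0.01). Over the course limma called 36 lower from 0 to 96 h and 0 higher by the fitted curve (46 lower and 1 higher at an unadjusted p under 0.05; edgeR called 36 lower and 1 higher), where 24.8% of all 16206 genes were called lower and 25.4% higher. The median change was −0.35, beside −0.02 for all genes. Without the 0 h library 6 were called lower (6.82% of the members, beside 20.9% of all genes), with a median of −0.04, and without the 12 h library 19 (21.6%, beside 18.3%). Without the intensity trend 11 were called lower (12.5%, beside 21.9%) and with a spline of time itself 9 (10.2%, beside 17.8%), so the members' share lay above that of all genes in the reported fit and below it in these 2 and without 0 h.

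Rpl10l and Rpl39l made the largest changes of the course. Rpl10l went from 823.5 normalised read counts at 0 h to 25.5 at 96 h, with most of the decline after 36 h (618.3 at 36 h, 274.3 at 48 h, 103.0 at 72 h). Its fitted log2 change was −4.995 (limma adjusted p = 7.91e-06), and that of Rpl39l, from 183.5 to 13.2, was −3.80 (1.83e-05). Rps20 went from 5537 to 2963 (−0.998 on the log2 scale, limma adjusted p = 0.0061), and Rpl31 (−0.81) and the low-count Rpl3l (−2.67) also fell. Rps4l rose from 1270 at 0 h to 2816 at 12 h and returned to 1075 at 96 h, a curve that passed the test (limma adjusted p = 0.00166). Of the stalk genes Rplp2 had the highest fitted change at 0.43 (limma adjusted p = 0.0578), Rplp0 had −0.11 and Rplp1 −0.48, and none of the 3 was called. The next highest fitted changes, of Rpl36 (0.12), Rps9 (0.12), Rpl10 (0.11) and Rpl7a (0.09), were not called either.

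Ribosome biogenesis genes did not share this direction, with 15 of 37 higher and 5 lower over the course (median 0.31), Mrto4 (1.34) and Gar1 (1.10) leading the rises and Dkc1 (−1.37) and Nop56 (−0.32) the falls. Among translation genes 6 of 17 rose, including Hnrnpa1 (0.63) and Eef2 (0.61), and Eif3k (−0.51) fell. Myc rose by 6.06 on the log2 scale and Mycl by 1.55, and Trp53 fell by 0.67.

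Across the 24 libraries of the EpiLC table most members followed each other closely. The Pearson correlation of a gene's log2 value with the median of the other members had a median of 0.92, and 75 genes reached 0.8. Libraries of 1 condition follow each other in time, and 6 of the 24 are of the knockout, whose difference from the rest enters the correlation, so the value is a description. The 7 genes under 0.5 were Rps4l (−0.61), Rpl10l (−0.35), Rpl39l (−0.08), Rpl7l1 (−0.02), Rpl15 (0.04), Rplp2 (0.11) and Rpl3l (0.31), 5 of them paralogues. In the 8 libraries of the EB table the median was 0.93. Rpl7l1 (0.35), Rps4l (0.37) and Rpl10l (0.48) were the lowest there, and each was also under 0.5 in the EpiLC table.

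Dox, which induced ISY1, left the ribosomal protein genes without a called change. limma called 0 of 88 (7 at an unadjusted p under 0.05) and edgeR 0 (6), where limma called 2.83% of all 16117 genes. The median difference was 0.03, and the share of the library differed by 0.0965 ± 0.0968 points (SD over 4 pairs). Rpl10l had 747.7, 364.0, 315.0 and 177.4 normalised read counts with Dox at 24, 48, 72 and 96 h, against 854.5, 274.3, 103.0 and 25.5 without. It was higher in 3 of 4 pairs, most at 96 h, with a log2 difference of 1.14 that was not called (limma adjusted p = 0.168). Rpl39l had 184.1, 123.7, 90.6 and 57.5 with Dox against 209.1, 112.4, 31.0 and 13.2, a difference of 0.88 (limma adjusted p = 0.202). The Dox and knockout comparisons share their libraries without Dox at these hours. In serum/LIF, with 1 library per arm and no test, 84 of 88 genes were higher with Dox (median 0.20, against −0.04 for all genes), and none reached 2-fold, beside 1.18% of all genes higher and 8.2% lower by that fold. The largest was Rps27l, from 436 to 651.

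The share of the ribosomal protein genes was higher in all 4 cESC libraries than in the EpiLCs they came from, by 1.61 ± 1.40 percentage points (SD over 4 pairs). The pair of 24 h without Dox differed by 3.67 points, and the other 3 pairs by 0.932 ± 0.357. It reached 9.01% in cESC from 24 h EpiLCs without Dox and 6.63%, 6.02% and 7.21% in those from 48 h without Dox, 24 h with Dox and 48 h with Dox. Few single genes passed the test, with 1 higher and 2 lower, where 5.62% of all 16075 genes were called higher and 12.8% lower. The median difference was 0.28, beside −0.14 for all genes, and the values of 25 genes did not overlap in the higher direction, against 9.31% of all genes. Without the pair of 24 h without Dox, in which the members' median was 0.64 against 0.07 to 0.26 in the others, the median difference was 0.16. Median-ratio scaling moved the median of all genes by 0.12 and called 5 of the 88 higher, beside 1274 of all 16067 genes.

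Rps20 was the gene that rose, with 7392, 5549, 4988 and 6131 normalised read counts in the cESC libraries against 4158, 3757, 4241 and 4425 in the EpiLCs they came from (log2 0.52, limma adjusted p = 0.0415), and no overlap. Leaving out any pair but that of 24 h without Dox ended the call. Rpl22, with the highest fitted difference (0.67), was not called (limma adjusted p = 0.0671). Rpl39l had 9.2, 47.3, 47.4 and 39.6 in cESC against 209.1, 112.4, 184.1 and 123.7, and Rpl10l had 76.7, 235.5, 307.0 and 174.8 against 854.5, 274.3, 747.7 and 364.0. Rpl39l did not overlap and fell by 2.29 (limma adjusted p = 0.0138), and Rpl10l, which overlapped, was lower in 4 of 4 pairs and fell by 1.504 (0.0466). The call of Rpl10l was lost in 7 of the alternatives run, among them median-ratio scaling and edgeR. In 2i/LIF before the conversion the same genes stood at 183.5 and 823.5, above every cESC library. In the stalk Rplp0 (0.36) and Rplp1 (0.34) had positive and Rplp2 (−0.25) negative differences, none of them called.

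In the EB course the ribosomal protein genes were highest at days 4 and 8 and lowest at the end. Their share was 4.82% at day 0 and 4.35%, 4.47%, 5.45%, 4.91%, 3.69% and 3.12% at days 1, 2, 4, 8, 10 and 13. From day 2 to 4 82 of 88 genes were higher (median 0.37, beside 0.13 for all genes). From day 8 to 10 all 88 were lower (median −0.61, beside −0.01). Over the course limma called 7 lower and 0 higher (12 lower and 0 higher at an unadjusted p under 0.05; edgeR called 10 lower), where 9.61% of all 16753 genes were called lower and 17.3% higher. The median change from day 0 to 13 was −0.34, beside 0.12 for all genes. Without the day 13 library the members' median was −0.03, with 3 genes called lower (3.41%, beside 4.62% of all genes). Without day 10 limma called 2 genes lower (2.27%, beside 3.62% of all genes), and without day 0 it called 25 (28.4%, beside 12.8%). In the reported fit the members' share called lower was 7.95%, below the 9.61% of all genes.

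The 7 genes were mostly paralogues. Rpl10l had 167.7, 302.0, 244.2, 80.0, 40.0, 17.2 and 11.7 normalised read counts from day 0 to day 13, a fitted change of −4.36 (limma adjusted p = 0.00241). Rpl39l had 8.18, 19.5, 18.2, 58.1, 15.3, 3.33 and 2.78 (−1.29, limma adjusted p = 0.0298), highest at day 4, the last value resting on few reads. Rpl3l, at 12.7 on day 0, was at 0 reads on days 10 and 13, where 3 reads correspond to 1.67, and its fitted change depends on the pseudocount. Rps4l (−1.94) and Rpl7l1 (−1.15) fell as well. The core genes called were Rplp2, from 1415 at day 0 to 505 at day 13 (−1.39, limma adjusted p = 0.0219), and Rps2, from 2722 to 904 (−1.30, limma adjusted p = 0.0166). Neither was called without day 10 or without day 13. Rplp0 (−0.93), Rplp1 (−0.62) and Rpl31, which had the highest fitted change (0.25), were not called.

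Ribosome biogenesis genes fell in 12 of 37 cases over the EB course and rose in none (median −0.84), with Heatr1 (−1.96) and Ddx21 (−1.73) lowest. Among translation genes Pabpc1 (−2.33) and Eif4b (−0.78) fell and Hnrnpa1 (0.65) rose. Summed markers of other cell types rose over the course, some of them before its end. The feeder list, of which 6 of 7 genes were in the table, summed to 2432 ppm at day 13 and to 4.04 to 59.6 before it. Of these genes Col1a2 and Col3a1 were called higher, and Thy1 had a negative fitted change (−2.36) that was not called. The heart list (4 of 5 genes) summed to 405 against 3.89 to 23.5, and none of its genes was called. Neural markers summed to 70.8 ppm at day 0, 422 at day 4, 435 at day 8, 1156 at day 10 and 1879 at day 13. Endoderm markers summed to 1.34, 21.0, 426, 410 and 1035 on the same days. The part of these markers in the lower ribosomal protein values was not tested.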

How the data were processed

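Values of the unit signal were deposited by the authors: gene read counts divided by 1 size factor per library. This scale was read from the values, which are multiples of 1 step per library in all 32 polyA libraries. The match was 100% within the printed rounding, which spans up to 0.352 reads, and 3 reads were taken as the floor. In the knockout library of 96 h, where the rounding is widest, a factor of 8.0 matched 100% of values as the 7.04 used did. Only 28.1% of its values lay within 0.1 reads of a whole number. The match cannot settle its step, and its depth and recovered reads are uncertain. Libraries were made from Trizol RNA with a stranded TruSeq kit, per the labels' protocols. Bowtie, GRCm38 and mm9 are named without roles, per the submitters' processing notes; the counter, annotation and normalisation are not given in the sources used here. The 10 small RNA libraries were not used. Of the EpiLC table, 1 row without a name was left out.

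limma 3.58.1 (R 4.3.3, empirical Bayes with intensity trend, two-sided) was fitted on log2(value + 1) over all genes with a mean of at least 1, with Benjamini-Hochberg adjustment at 0.05. Fold changes are on that scale and understate those of low genes. Pairs of libraries entered with hour or source as a block, since conditions share hours and have no replicates; courses were fitted as natural splines of the square root of time with 3 (EpiLC) or 2 (EB) degrees of freedom. edgeR 4.0.16 on the recovered reads was added after seeing the data and called 6626 genes in the knockout comparison. The fits were tested on simulated data. Alternatives covered scaling, pseudocount, filter, trend, block, spline and leaving out each library or pair.

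The genes, the related lists and the markers were chosen with earlier results of these data known. The rule for naming took, per comparison, the 5 largest rises and falls among members, the stalk genes and paralogues, and the 2 largest called rises and falls of a related list, of which those that bear on a result are printed; other members were named by role after their values were seen. A few single genes are not reported here.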

Additional observations from a re-analysis of the deposited data

How the results depend on the processing

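The count of ribosomal protein genes lower in the knockout stayed within 1.5 times of 75 in the fits of each gene's own value: it was 56 with median-ratio and 59 with TMM-like scaling, 61 without the intensity trend, 51 without the replicate block of hours, 57 by edgeR, and 58 to 78 when each pair was left out. Relative to the median member, which removes the shift they share, 11 were lower. With pseudogene rows added, the difference in share was −1.89 points. In the EpiLC course the 36 genes called lower became 11 (12.5%, beside 21.9% of all genes) without the intensity trend, 9 (10.2%, beside 17.8%) with a spline of time itself, and 6 (6.82%, beside 20.9%) to 34 when each library was left out. In the EB course the 7 (7.95%, beside 9.61% of all genes) became 11 (12.5%) with median-ratio or TMM-like scaling, beside 11.1% and 11%. A spline of time itself gave 13 (14.8%, beside 11.4%). Leaving out each library gave 2 (without day 10, 2.27% beside 3.62%) to 25 (without day 0, 28.4% beside 12.8%). On return to 2i/LIF the 1 of 88 genes called higher became 0 without the filter or the trend, and 0 to 2 when each pair was left out. Median-ratio and TMM-like scaling each gave 5, beside 1274 and 1259 of all 16067 genes called higher. Library totals gave 3, beside 1055 of 16069. The fit without the replicate block gave 6, beside 1185 of 16075, and edgeR 6, beside 1211 of 16075. No member was called for Dox or for a change of the knockout difference with hour in the alternatives of those fits that were run. For Dox, the fits without the filter, the trend, the block, the 48 h pair or the 72 h pair called 0 of all genes. Those fits could therefore call no member. The other Dox alternatives called 0.41% to 6.98% of all genes, and the alternatives by hour 0.0308% to 0.891%. Of 1611 values for single named genes, 1489 kept direction and call, 96 lost the call, 23 gained it and 3 changed sign: in the EpiLC course Rps3a2 (0.0934) and Rps3a3 (0.0384) without the 0 h library and Rps4l (0.21) without the 96 h library. Over the libraries left out in turn these ran from −0.31, −0.47 and −1.19 up to those values. The causes were not tested. No paired analysis by replicate number was possible because the labels give no replicate numbers; hours served as pairs. Depth limits Rpl3l and Rpl39l most, with few reads in late EB libraries.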
